A study of Mus musculus with 18 samples.

Results

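The 53 genes described here encode chromatin modifiers: enzymes that place or remove methyl and acetyl groups on histones, ATP-driven nucleosome remodelers and their partner subunits, and the enzymes that methylate or oxidize cytosine in DNA. They were chosen by name as a functional group, with earlier results of these data known. A differential m6A peak was given to a gene where the annotation of the peak named that gene, or where the gene was the authors' assigned gene and the peak centre lay between its ends. By this rule 271 of the 40929 peaks used from the 4 deposited tables belonged to 51 of the 53 genes, among 21887 protein-coding genes. Kdm4a and Kdm6b, both histone demethylases, had no peak by this rule, although a Kdm4a exon held an LPS up peak (1.7) that was annotated as the promoter of another gene. Counts of peaks per gene below are those of the rule unless the reference transcript is named. The study examined the uterus of 8-week-old wild-type female ICR mice on day 5 of pregnancy. Vehicle (Veh) mice received intraperitoneal vehicle, LPS mice received lipopolysaccharide at 0.5 mg/kg on days 3 and 4, and Mel+LPS mice received melatonin at 10 mg/kg from day 1 to day 4 in addition to the same LPS. The paper's methods describe daily injections of melatonin or vehicle over days 1 to 4, with melatonin dissolved in saline that contained ethanol. Each treatment had 3 replicates, each with an input library and a library enriched with an m6A antibody, which makes 18 libraries. The uterus was taken whole, so a change in the cell types present and a change within cells cannot be told apart, nor can a change in methylation be told apart from a change in the amount of transcript, because the tables hold no expression values.

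N6-methyladenosine (m6A) is a methyl mark placed on messenger RNA by a nuclear writer complex with METTL3 as its catalytic subunit, mostly in long internal exons and around stop codons, and it is read by proteins that direct RNA decay, splicing and translation. Chromatin modifiers set which genes can be transcribed: the KMT2 and SETD1 enzymes methylate histone H3 at lysine 4 at promoters and enhancers, EZH enzymes methylate lysine 27 at silenced genes, and SWI/SNF, CHD and ISWI remodelers move or evict nucleosomes. In the uterus several of these factors act in the response of the endometrium to progesterone and estrogen and in decidualization, and most of them are encoded by long transcripts with many exons.

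Each peak carried a log likelihood ratio on the log10 scale, a deposited score that compares a model in which the treatments differ at the peak with a model in which they do not. It is given once for a peak and not for single mice, so no value below has a replicate error, no test across mice could be made, and the read depth behind a peak is unknown. The tables are called LPS up and LPS down (LPS compared with Veh) and Mel+LPS up and Mel+LPS down (Mel+LPS compared with LPS), and up means a higher signal in the treatment that is named. LPS down was complete on chromosomes 1 to 9 only, where 30 of the 53 genes lie, and was used for these 30 genes. It was not used for Kmt2d, Nsd1, Ezh1, Ehmt2, Kdm2a, Kdm3b, Kdm6b, Ep300, Crebbp, Kat6b, Hdac5 or Arid1b. The same holds for Arid2, Smarca2, Chd1, Chd3, Chd8, Bptf, Baz2a, Asxl2, Asxl3, Tet1 and Dnmt3a. Below, silence on LPS down for these genes does not mean that no such peak exists. Both comparisons use the LPS libraries, so a site listed as LPS up and as Mel+LPS down rests on the same LPS data in both. Intervals are 95% Wilson intervals over genes or peaks and do not describe mice.

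Peaks that lie wholly within a coding exon are shown first for 8 genes, as examples. Sequences are on the strand of the transcript (GENCODE M21, GRCm38), and capitals mark matches to the m6A consensus named DRACH, which is A, G or T, then A or G, then A, C and any base but G. The sites in Setd2 (chr9:110548833-110548948, exon 3 of 21) and Asxl1 (chr2:153397613-153397767, exon 12 of 13) are LPS down peaks that overlapped a Mel+LPS up peak.
Setd2: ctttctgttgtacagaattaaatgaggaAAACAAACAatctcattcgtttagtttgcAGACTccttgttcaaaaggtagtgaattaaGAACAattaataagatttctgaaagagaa
Asxl1: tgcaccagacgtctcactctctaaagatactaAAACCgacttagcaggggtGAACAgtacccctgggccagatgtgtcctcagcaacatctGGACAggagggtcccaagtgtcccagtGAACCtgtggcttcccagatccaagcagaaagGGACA
The sites in Tet3 (chr6:83368993-83369176, exon 12 of 12), Tet2 (chr3:133467415-133467572, exon 11 of 11), Chd6 (chr2:160966000-160966230, exon 31 of 37) and Crebbp (chr16:4085253-4085468, exon 31 of 31) are Mel+LPS down peaks that overlapped an LPS up peak.
Tet3: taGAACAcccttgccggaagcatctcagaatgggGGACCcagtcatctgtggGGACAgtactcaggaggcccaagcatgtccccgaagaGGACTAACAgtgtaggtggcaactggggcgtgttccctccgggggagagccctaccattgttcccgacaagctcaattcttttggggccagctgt
Tet2: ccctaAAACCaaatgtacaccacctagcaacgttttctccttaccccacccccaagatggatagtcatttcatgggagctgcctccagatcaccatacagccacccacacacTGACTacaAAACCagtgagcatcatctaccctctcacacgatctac
Chd6: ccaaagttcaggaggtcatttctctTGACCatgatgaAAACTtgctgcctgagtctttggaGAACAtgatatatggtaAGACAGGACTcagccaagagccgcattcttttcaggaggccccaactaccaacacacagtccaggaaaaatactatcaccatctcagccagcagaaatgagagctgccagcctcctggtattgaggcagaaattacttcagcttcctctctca
Crebbp: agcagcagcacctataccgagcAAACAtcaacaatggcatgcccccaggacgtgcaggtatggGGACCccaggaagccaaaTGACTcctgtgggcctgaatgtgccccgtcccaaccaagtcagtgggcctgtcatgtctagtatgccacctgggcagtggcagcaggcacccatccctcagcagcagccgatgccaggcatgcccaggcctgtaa
The sites in Kmt2a (chr9:44822002-44822173, exon 27 of 36) and Ash1l (chr3:88985201-88985438, exon 3 of 28) are Mel+LPS up peaks from exons of 4237 and 4558 bases, each of which held more than 1 peak. Exon numbers here are those of the reference transcript, and elsewhere those of the authors' annotation. Of the 189 peaks annotated to an exon, 76 had their centre off every reference exon of the gene.
Kmt2a: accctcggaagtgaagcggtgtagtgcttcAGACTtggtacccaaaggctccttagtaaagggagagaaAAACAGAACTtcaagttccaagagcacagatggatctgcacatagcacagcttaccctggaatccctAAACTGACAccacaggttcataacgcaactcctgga
Ash1l: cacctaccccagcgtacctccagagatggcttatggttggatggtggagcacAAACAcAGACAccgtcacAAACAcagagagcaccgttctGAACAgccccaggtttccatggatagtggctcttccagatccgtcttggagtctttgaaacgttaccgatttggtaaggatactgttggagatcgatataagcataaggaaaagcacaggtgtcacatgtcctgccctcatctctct

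The share of chromatin modifier genes with a peak was above that of all protein-coding genes in every table, but in LPS down it was below that of genes with a peak in any table (43.3% against 49.2%). In LPS vs Veh, 40 of the 53 genes had an up peak (75.5%, interval 62.4 to 85.1), against 20.1% of all protein-coding genes. On chromosomes 1 to 9, 21 of 30 had an up peak (70.0%, 52.1 to 83.3; 19.9% of all genes) and 13 of 30 had a down peak (43.3%, 27.4 to 60.8; 22.0% of all genes). In Mel+LPS vs LPS, 43 of 53 had an up peak (81.1%, 68.6 to 89.4; 25.6% of all genes) and 26 of 53 a down peak (49.1%, 36.1 to 62.1; 15.3% of all genes). Transcript length moved with these shares: 46 of the 53 genes have a transcript of at least 5000 bases, and among the 3309 protein-coding genes of that length the shares were 39.0% for LPS up, 44.5% for Mel+LPS up and 27.5% for Mel+LPS down. For LPS down on chromosomes 1 to 9 the share among long genes was 37.0%, inside the interval of the chromatin modifier genes, while the other 3 shares lay below it. The part of length in the remaining difference was not tested. The genes were chosen with earlier results of these data known, and the intervals do not cover that choice.

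**Figure D1:**
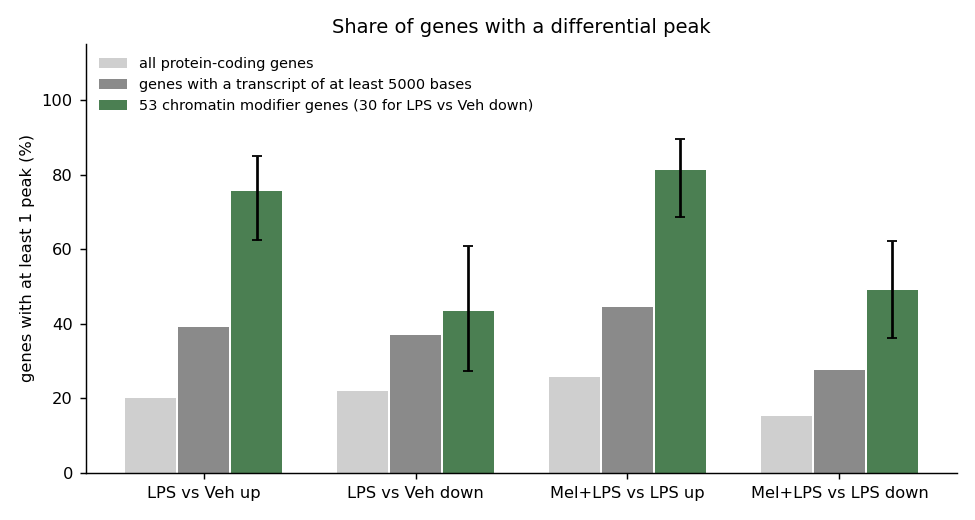
Share of genes with at least 1 differential peak (vertical axis, percent) in each of the 4 tables (horizontal axis) for all protein-coding genes, for genes with a transcript of at least 5000 bases and for the chromatin modifier genes with 95% Wilson intervals. The chromatin modifier genes stand at 75.5%, 43.3%, 81.1% and 49.1%, and in LPS vs Veh down the value for long genes (37.0%) lies within their interval.

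Up peaks outnumbered down peaks in both comparisons. On chromosomes 1 to 9, 51 of the 68 peaks of these genes in LPS vs Veh were up (75.0%, 63.6 to 83.8), whereas of all 8539 peaks inside genes 48.6% were up. In Mel+LPS vs LPS, 127 of 172 were up (73.8%, 66.8 to 79.8), beside 64.8% of 16134 peaks inside genes. These intervals treat peaks as independent, although many lie in the same gene. Without the 5 genes with the most peaks, 67.6% were up in LPS vs Veh and 76.3% in Mel+LPS vs LPS. The balance depended on the class of peak in the latter comparison. Of the exon peaks, 97 of 116 were up in Mel+LPS vs LPS (83.6%, 75.8 to 89.3; all genes 74.2%), but of the intron peaks only 13 of 34 were up (38.2%, 23.9 to 55.0; all genes 43.1%). In LPS vs Veh no such split was seen, with 36 of 47 exon peaks and 12 of 15 intron peaks up. Of the 51 genes with a peak, 4 were in all 4 tables (Chd9, Ehmt1, Hdac4 and Setd2), 20 in 3 tables, 19 in 2 and 8 in 1. Only the 30 genes on chromosomes 1 to 9 could be in all 4 tables, and the same counts over all genes were not made. The median was 5 peaks per gene with a peak, against 2 for protein-coding genes with a peak.

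**Figure D2:**
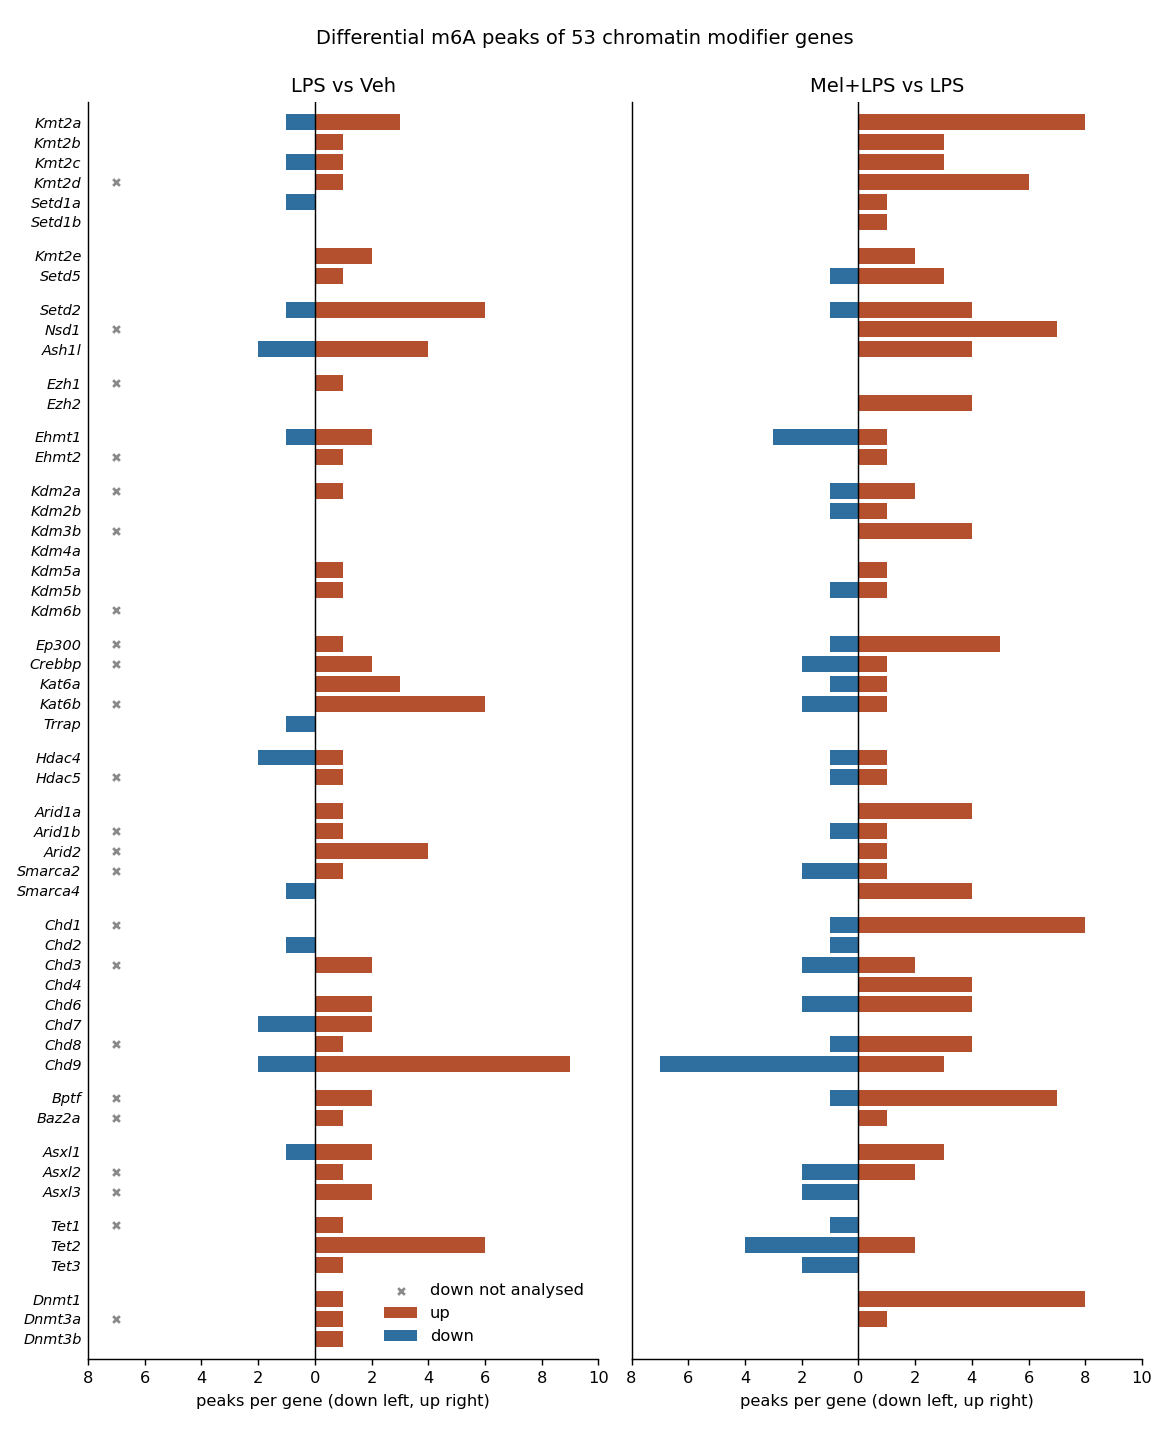
Number of up (right) and down (left) peaks of each of the 53 genes in LPS vs Veh (left panel) and Mel+LPS vs LPS (right panel), with genes grouped by role and gray crosses for genes outside chromosomes 1 to 9, whose down peaks in LPS vs Veh were not analysed. Chd9 has the longest bars in LPS up (9 peaks) and Mel+LPS down (7 peaks), and Kmt2a, Chd1 and Dnmt1 each have 8 up peaks in Mel+LPS vs LPS.

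The 6 enzymes that methylate histone H3 at lysine 4 had 31 peaks, and none of these was Mel+LPS down. All 6 had at least 1 Mel+LPS up peak, 22 in total, while 6 peaks in 4 genes were LPS up and 3 in 3 genes were LPS down. Of all protein-coding genes 25.6% had a Mel+LPS up peak and 15.3% a Mel+LPS down peak, and of long genes 44.5% and 27.5%. Whether the 6 genes differ from these shares was not tested. Kmt2a, the founding member of the MLL family, had 8 of the 22. Its values ran from 1.88 in exon 7 to 7.52 in exon 21 (chr9:44826645-44826831), and 3 of the 8 lay in its exon 27 of 4237 bases, at 2.23, 3.8 and 5.29. The 3 LPS up peaks of Kmt2a, in exons 3 and 27, had lower values, of at most 1.66. Kmt2d, which acts at enhancers, had 6 Mel+LPS up peaks, 3 of them in exon 40 (2.3, 2.4 and 3.85), 2 in exon 49 (1.28 and 1.5) and 1 in exon 35 (3.79), and a single LPS up peak in exon 40 (1.85). Kmt2c, its close relative, had an intron 27 peak at 7.04 and exon peaks at 1.28 and 1.44 in Mel+LPS up. In exon 52 of Kmt2c a Mel+LPS up peak (1.44) ended on the base before an LPS up peak (3.53) began. Kmt2b, which trimethylates promoters, had Mel+LPS up peaks at 1.56, 1.67 and 3.5 and an LPS up peak at 1.26. Setd1a and Setd1b, the catalytic subunits of the COMPASS complexes, had 1 Mel+LPS up peak each, at 2.52 and 1.64. The SET-domain proteins Kmt2e and Setd5 had 3 LPS up, 5 Mel+LPS up and 1 Mel+LPS down peak between them, with the highest value in exon 19 of Kmt2e (5.6, Mel+LPS up).

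Enzymes acting on lysine 36 of histone H3 had 29 peaks in 3 genes. Nsd1, which dimethylates this residue, had 7 peaks, and all were Mel+LPS up, but LPS down was not used for this gene. The authors' annotation put 5 of the 7 in a 5′ UTR, but on the reference transcript these lay in coding exon 5 of 2560 bases, with values of 1.52, 1.62, 2.99, 3.16 and 10.2. Setd2, which deposits trimethylation behind elongating polymerase, had peaks in every table: 6 LPS up, 1 LPS down, 4 Mel+LPS up and 1 Mel+LPS down. The LPS down peak (5.14) and the overlapping Mel+LPS up peak (4.42) lay in its long coding exon of 4286 bases, from which the sequence above was taken, whereas the 2 highest LPS up values of Setd2 were in intron 9 (7.31) and exon 16 (5.47). Ash1l had 4 LPS up, 2 LPS down and 4 Mel+LPS up peaks. Its LPS down peak of exon 7 reached 5.37, second in LPS down after Chd7 by the rule. Its LPS up peaks of exons 3, 6 and 20 had 4.52, 1.66 and 4.78. Exon 2 held both directions, with an LPS down peak by annotation (3.5) and an LPS up peak by the reference (2.76). By the reference a further LPS down peak lay in the coding part of Ash1l exon 3 (7.66), as did the LPS up peak at 4.52. The rule did not reach this LPS down peak because its annotation is the promoter of a shorter transcript.

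Both Polycomb methyltransferases for lysine 27 had peaks, but in different tables. Ezh2 had 4 peaks, all Mel+LPS up, at 1.14, 1.89, 3.73 and 9.85, the last at chr6:47554104-47554205. Ezh1 had a single peak, LPS up, in exon 13 (7.61), and LPS down was not used for this gene. The lysine 9 methyltransferase gene Ehmt1 had 7 peaks, 6 of them in introns and 1 in the promoter. Its intron 16 peak at chr2:24818580-24818810 was the highest value of the 53 genes in LPS up (10.8), and it overlapped a Mel+LPS down peak at 2.87. A pair of peaks in intron 1 of Ehmt1 had nearly the same ends in both comparisons, at 7.15 in LPS up and 5.95 in Mel+LPS down. Ehmt2, its partner, had only 2 exon peaks, at 1.64 (LPS up) and 2.24 (Mel+LPS up).

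Among the 7 lysine demethylases, 5 had peaks, 15 in all, and 9 of these were Mel+LPS up. Kdm2b, a demethylase that also recruits Polycomb to CpG islands, held the highest value of all 271 peaks, 21.2 in intron 3 (chr5:122883169-122883302), which ranked 17 among 10459 Mel+LPS up peaks inside genes. Its other peak was Mel+LPS down, at 2.26 in exon 11. Kdm5a, which removes methyl groups from lysine 4, had an LPS up peak in exon 20 at 10.2 and a Mel+LPS up peak in exon 26 at 6.94. Kdm3b had 4 Mel+LPS up peaks between 1.43 and 3.07. Kdm2a had its highest values in exon 16 (4.78, Mel+LPS up) and intron 2 (5.19, Mel+LPS down), and Kdm5b had values of 1.26 to 1.77 in 3 tables.

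The acetyltransferase group had 27 peaks. Ep300, a coactivator acetyltransferase, had 5 Mel+LPS up peaks, of which that in exon 20 had 11.8 and that in exon 10 a slightly higher value, and 1 Mel+LPS down peak in exon 16 at 5.83, with an LPS up peak at 1.4. The Ep300 peaks annotated to exons 10, 16 and 20 had their centre off the reference exons. Its paralog Crebbp differed: 2 LPS up peaks (1.44 and 1.74), 2 Mel+LPS down peaks (2.5 in exon 31 and 5.53 in exon 2) and 1 Mel+LPS up peak in an intron (5.42). Kat6b, which acetylates histone H3, had 6 LPS up peaks from 1.37 to 9.61, 2 Mel+LPS down peaks and 1 Mel+LPS up peak. The strongest of these, at chr14:21628858-21629106, had identical ends in LPS up (9.61) and Mel+LPS down (9.93), and its centre lay off the exons of the reference transcripts. Kat6a had 3 LPS up peaks at 1.63, 1.96 and 2.32, 1 Mel+LPS up peak at 2.1 and 1 Mel+LPS down peak at 3.85. Trrap, the scaffold of acetyltransferase complexes, had a single peak by the rule, LPS down in intron 13 (3.68). The class IIa deacetylase genes Hdac4 and Hdac5 had 8 peaks, and each had an intron peak with identical ends in LPS up and Mel+LPS down: intron 20 of Hdac4 (5.55 and 5.62) and intron 11 of Hdac5 (2.66 and 3.45). In exon 11 of Hdac4 the pattern was the opposite, with 4.83 in LPS down and 2.52 in Mel+LPS up.

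SWI/SNF subunit genes had 22 peaks in 5 genes. Arid1a, a DNA-binding subunit often lost in endometrial carcinoma, had 4 Mel+LPS up peaks between 1.53 and 2.28 and 1 LPS up peak at 2.05. Arid2 had 4 LPS up peaks from 1.24 to 1.92 and 1 Mel+LPS up peak at 1.44, and LPS down was not used for this gene. The 2 ATPases of the complex were unlike each other in their peaks: Smarca4 had 4 Mel+LPS up peaks (1.25 to 2.46) and an LPS down peak (1.45), while Smarca2 had 2 Mel+LPS down peaks (6.29 and 5.54), a Mel+LPS up peak (6.48) and an LPS up peak (1.29). The Smarca2 peaks at 5.54 and 6.48, of opposite direction, lay in the same intron, 28, and LPS down was not used for Smarca2. Arid1b had 1 peak each in LPS up (1.26), Mel+LPS up (4.29) and Mel+LPS down (3.85).

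CHD remodelers, the family with the most genes, had 60 peaks in 8 genes, 21 of them in Chd9. Chd9 had the most peaks of any gene in the group, and 13 of its peaks lay in intron 2 between positions 90873012 and 90891879 of chromosome 8. These were 7 LPS up (1.9 to 8.56) and 6 Mel+LPS down (1.69 to 8.81), and they formed 7 overlapping pairs with widths of up to 1072 bases, against a median of 175 bases for all 271 peaks. The peaks annotated to exons of Chd9 were of both kinds. Exon 40 was LPS up (2.12) and Mel+LPS down (1.27) like the intron. Exon 36 was LPS up (1.85), but the centre of that peak lay off the reference exons. In contrast, exon 3 held the second highest value in Mel+LPS up (13.1, chr8:90933552-90933808) and exon 32 was Mel+LPS up as well (3.24). Chd1, a remodeler of active chromatin, had 8 Mel+LPS up peaks from 1.88 to 12.8 and 1 Mel+LPS down peak at 2.02, and no LPS up peak. Chd4, the NuRD ATPase, had 4 peaks by the rule, all Mel+LPS up (1.62, 2.3, 3.05 and 3.15), and by the reference also an LPS down peak in the 3′ UTR (2.0) and a Mel+LPS up peak in coding exon 27 (2.27). Chd8 had 4 Mel+LPS up peaks, of which those in exons 5 and 10 had 11.4 and 7.39, an LPS up peak at 7.23 in exon 4 and a Mel+LPS down peak at 1.35. Chd7, mutated in CHARGE syndrome, had peaks by the rule only where LPS was compared with Veh, LPS up in exons 31 and 34 (2.82 and 6.19) and LPS down in exons 24 and 36 (3.63 and 5.95), the last being the highest LPS down value reached by the rule. Chd6 had 2 LPS up, 4 Mel+LPS up (1.51 to 7.19) and 2 Mel+LPS down peaks, Chd3 had 2 in each of the same tables at 1.13 to 3.0, and Chd2 had 2 intron peaks at separate sites (1.03, LPS down, and 3.3, Mel+LPS down).

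Bptf, the reader subunit of the NURF remodeler, had 7 Mel+LPS up peaks, and the highest were in intron 15 (12.3) and exon 10 (11.2). In exon 11 of Bptf an LPS up peak (1.36) lay inside a Mel+LPS up peak of 751 bases (2.35). Baz2a, a subunit of the nucleolar remodeling complex, had 2.77 in LPS up and 2.42 in Mel+LPS up. Asxl proteins, cofactors of the BAP1 deubiquitinase, had 15 peaks, and those of Asxl1 and Asxl3 were in opposite Mel+LPS tables. Asxl2 had peaks in both of these, at 4.6 and 1.4 (up) and 1.29 and 1.33 (down). Asxl1 had 3 Mel+LPS up peaks in its last coding exons, at 1.27, 1.29 and 2.8, and no Mel+LPS down peak. Asxl3 had 2 LPS up peaks in exon 13 (6.4 and 3.63), each overlapping a Mel+LPS down peak (6.17 and 3.71), and no Mel+LPS up peak.

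The 3 Tet genes, whose enzymes oxidize methylcytosine, had 8 LPS up and 7 Mel+LPS down peaks, and LPS down was not used for Tet1. By the rule Tet2 alone of the 3 had Mel+LPS up peaks (9.03 and 5.42, both in exon 3). A Mel+LPS up peak at 7.67 lay in coding exon 4 of the Tet3 reference transcript but was annotated as the promoter of a microRNA gene. Tet3 had the highest Mel+LPS down value of the group, 13.1 in intron 3 (chr6:83386562-83386767), which ranked 45 among 5675 Mel+LPS down peaks inside genes. Tet1 had only an intron 4 site, at 5.39 in LPS up and 5.48 in Mel+LPS down with identical ends. The DNA methyltransferase genes had 12 peaks, of which 9 were Mel+LPS up and none Mel+LPS down. Of all protein-coding genes only 15.3% had a Mel+LPS down peak, and a difference from this share was not tested. No LPS down peak was found for Dnmt1 and Dnmt3b, and Dnmt3a lies on a chromosome where that table was not used. Dnmt1, the maintenance methyltransferase, had 8 Mel+LPS up peaks from 1.21 to 8.45 spread over the gene, and Dnmt3a had 1 at 1.57. Each of the 3 had 1 LPS up peak, at 3.78 in Dnmt1, 3.78 in Dnmt3b and 1.26 in Dnmt3a.

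**Figure D3:**
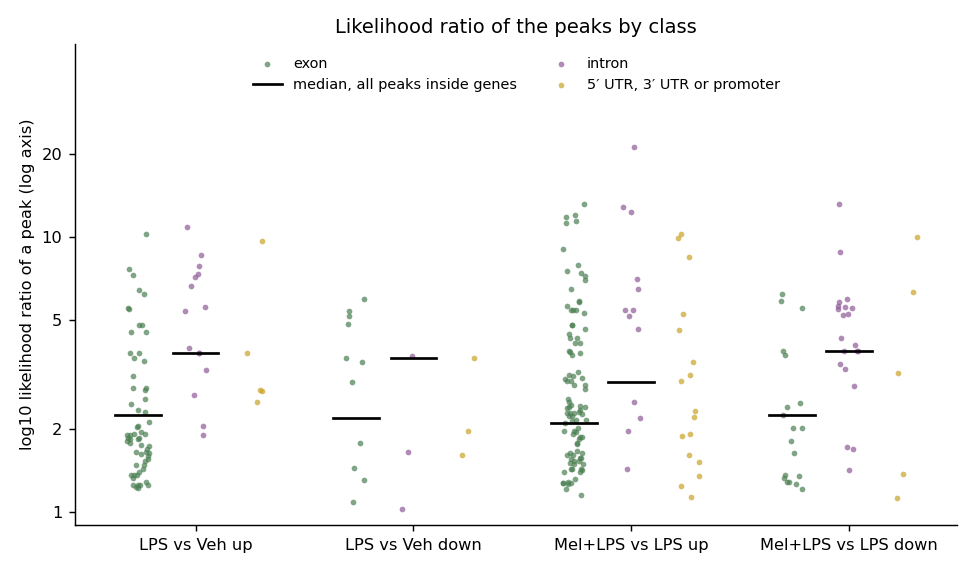
Log10 likelihood ratio (vertical log axis) of each of the 271 peaks in the 4 tables (horizontal axis), colored by the authors' class, with horizontal lines at the median of all exon or intron peaks inside genes. Exon peaks of LPS up have a median of 1.88 and intron peaks of 5.39, and the highest point is the Kdm2b intron peak at 21.2.

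Scores of the 53 genes lay near those of all genes. The median was 2.22 in LPS up (all peaks inside genes 2.76), 2.97 in LPS down (2.57), 2.42 in Mel+LPS up (2.18) and 3.45 in Mel+LPS down (3.09). Intron peaks scored above exon peaks in 3 tables: 5.39 against 1.88 in LPS up, 5.42 against 2.35 in Mel+LPS up and 4.29 against 2.02 in Mel+LPS down, and the order was the same over all genes (3.78 and 2.26, 2.97 and 2.11, 3.85 and 2.26). In LPS down, with 3 intron peaks, the order was reversed in these genes (1.65 against 3.5) and not over all genes (3.63 against 2.2). Each table also had 1 exact value that recurred in many peaks. This value was 3.78 in 5 of the 82 LPS up peaks and 3.63 in 2 of 17 LPS down peaks. It was 5.42 in 5 of 127 Mel+LPS up peaks and 3.85 in 4 of 45 Mel+LPS down peaks. Its shares of all peaks inside genes were 11.4%, 10.9%, 3.17% and 15.2%, in the same order. In LPS up, LPS down and Mel+LPS down it is the intron median over all genes, held by 27.3%, 26.4% and 28.7% of intron peaks. In Mel+LPS up it is the intron median of the chromatin modifier genes. These recurring values rank no gene above another. Among the values given above, they are those of the LPS up peaks of Dnmt1 and Dnmt3b, the Chd7 exon 24 peak, the Mel+LPS up peaks of Crebbp (intron 22) and Tet2 (exon 3, the lower value), and the Mel+LPS down peaks of Kat6a and Arid1b.

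Some sites had a peak in both comparisons. Because the LPS libraries enter both, opposite directions at a site are not independent, and the pairs are given to account for them and not as a result. LPS up and Mel+LPS down peaks overlapped in 24 pairs in 12 genes, 13 in introns, 9 in exons and 2 in a UTR class, and 10 of the 24 had ends that differed by at most 2 bases (6 were identical). The reverse pattern, LPS down and Mel+LPS up, gave 6 pairs in 6 genes, 5 in exons and none in an intron, none of which had matching ends. LPS down covers chromosomes 1 to 9 only, so these 2 numbers have different bases. The 6 pairs were Setd2 (5.14 and 4.42), Ash1l exon 2 (3.5 and 4.28), Hdac4 exon 11 (4.83 and 2.52), Kmt2a exon 28 (1.09 and 4.1), Asxl1 exon 12 (1.31 and 2.8) and a Chd9 site annotated to a 5′ UTR (1.62 and 2.34), with the LPS down value before that of Mel+LPS up. The exon pairs of the more frequent kind spanned 1.27 to 6.4 and the intron pairs 1.69 to 10.8. The exon pairs were Tet3 exon 11 (1.9 and 2.42), Tet2 exon 11 (2.36 and 1.64), Chd3 exon 33 (2.04 and 1.81), Chd6 exon 31 (4.52 and 2.03), Chd9 exon 40 (2.12 and 1.27), Crebbp exon 31 (1.44 and 2.5), Kat6b exon 17 (1.86 and 1.29) and the 2 Asxl3 sites above. Without Chd9, 16 pairs of the more frequent kind and 5 of the reverse kind remained. Pairs up in both comparisons occurred in Arid2 exon 15 (1.6 and 1.44) and Bptf exon 11 (1.36 and 2.35), and no pair was LPS down and Mel+LPS down.

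**Figure D4:**
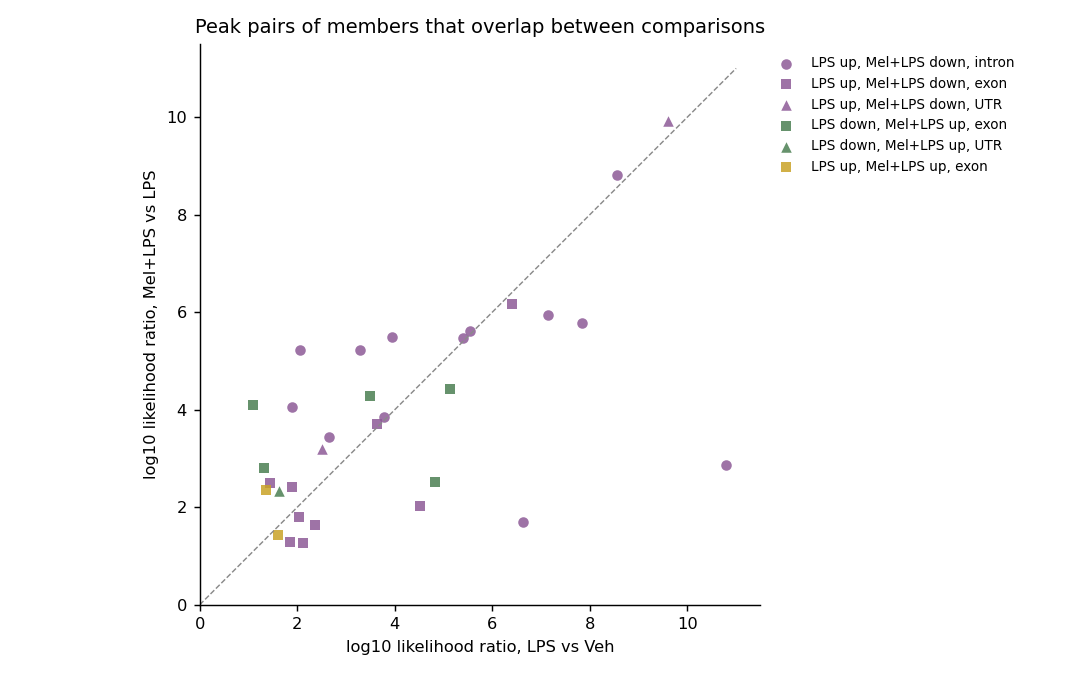
Log10 likelihood ratio in LPS vs Veh (horizontal) and Mel+LPS vs LPS (vertical) of the 32 pairs of peaks that overlap between the comparisons, colored by direction and shaped by class, with a dashed line of equality. Intron pairs reach 8.81 on the vertical axis, and the point at 10.8 and 2.87 is intron 16 of Ehmt1.

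Many genes held peaks of opposite direction at separate sites. When Mel+LPS was compared with LPS, 22 of the 47 genes with a peak had peaks of both directions (46.8%, 33.3 to 60.8), against 18.9% of the 7542 protein-coding genes with a peak, 21 had up peaks alone and 4 (Asxl3, Chd2, Tet1 and, by the rule, Tet3) had down peaks alone. For LPS compared with Veh on chromosomes 1 to 9, 9 of 25 had both directions (Ash1l, Asxl1, Chd7, Chd9, Ehmt1, Hdac4, Kmt2a, Kmt2c and Setd2), interval 20.2% to 55.5% against 20.9% of 4149 genes, 12 had up peaks alone and 4 (Chd2, Setd1a, Smarca4 and Trrap) had down peaks alone. Genes with more peaks have more chances of both directions, and the part of peak number in these shares was not tested.

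By the authors' annotation 189 of the 271 peaks were in exons (69.7%, 64.0 to 74.9; all peaks inside genes 56.6%), 52 in introns, 24 in a 5′ UTR, 4 in a 3′ UTR and 2 in a promoter. Of the 4 tables Mel+LPS down had the largest intron share, 21 of 45 peaks (46.7%, 32.9 to 60.9), and this was so over all genes too (36.4%, inside that interval). Of the 21, 6 were the Chd9 cluster, and without Chd9 the share was 39.5%. On the GENCODE transcripts the centre of 76 of the 189 exon peaks lay off every exon of the gene, including all 7 exon peaks of Dnmt1 and 6 of the 8 of Chd1. Among the high values given above, this held for Ep300 exons 10 and 20, Bptf exon 10, Chd8 exons 5 and 10 and Kmt2a exon 21. It also held for Ezh1 exon 13, Ash1l exons 7 and 20 and Chd7 exon 36. Of the 24 peaks in a 5′ UTR 11 were centred on coding bases, 13 off exons and none on 5′ UTR bases. Positions were therefore compared with the exons after moving each centre along its gene. With the centre as deposited, 169 peaks lay on an exon of the reference transcript of a chromatin modifier gene, 40 of which the rule had not reached. Moved 100 bases toward the 5′ end of the gene, 264 did (156% of the unmoved number), and moved 100 bases toward the 3′ end, 143 did. All protein-coding genes gave the same profile (157% after the move toward the 5′ end, from 15569 to 24457 peaks). The cause of this offset was not tested, and the coordinates and sequences given above are those of the deposited positions.

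**Figure D5:**
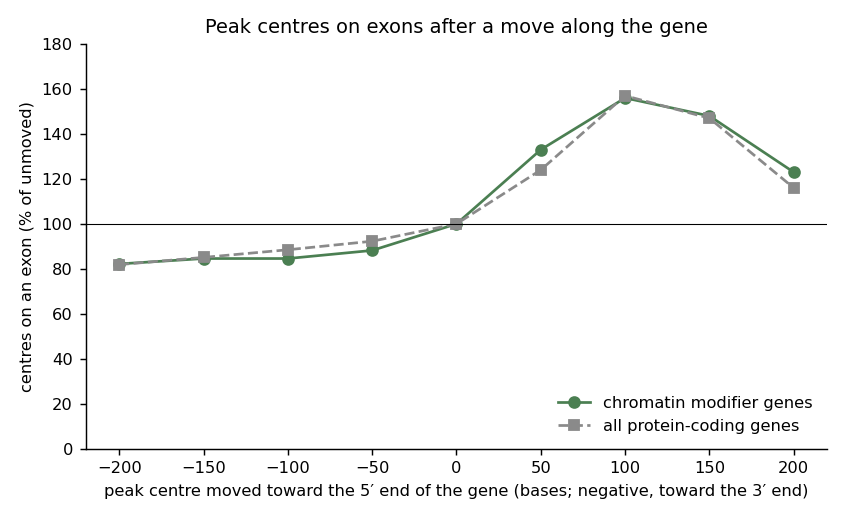
Number of peak centres on an exon, as a percentage of the number for unmoved centres (vertical axis), after moving each centre along its gene by up to 200 bases (horizontal axis, positive toward the 5′ end). Both the chromatin modifier genes (circles) and all protein-coding genes (squares) are highest at 100 bases, at 156% and 157%.

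The share in long exons depended on where the centre was placed. With centres as deposited, 84.0% of the exon peaks of the 53 genes (77.8 to 88.8) lay in exons of at least 400 bases, which hold 56.6% of the bases of their transcripts, beside 87.6% of the exon peaks of all genes, and 44.4% lay in long internal coding exons (17.8% over all genes). After the move of 100 bases toward the 5′ end 56.4% lay in exons of at least 400 bases (57.2% over all genes), and 30.3% in long internal coding exons. Coding bases prevailed in either case. Of the 169 peaks 142 were coding (84.0%, 77.8 to 88.8; all genes 52.3%), and after the move 90.9% were (all genes 72.1%). Few lay near the stop codon: 16 of 169 within 200 bases (9.47%, 5.91 to 14.8) against 22.6% over all genes, and 6.44% against 19.0% after the move. The transcripts of the group have more coding sequence, with a median of 5487 coding bases against 1161 and with 24.8% of their bases in the 3′ UTR against 41.3%, and that part in the difference was not tested.

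The rule missed 17 coding peaks of the reference transcripts, among them those of Ash1l, Tet3 and Kdm4a above, a Kat6a peak (5.25, LPS up) and a Chd7 peak near the stop codon (1.53, Mel+LPS down). Peaks in the 3′ UTR were mostly missed, because the authors' 3′ UTR annotation names no gene and their assigned gene is the one with the nearest start. The rule gave 4 such peaks, in Ezh2 and Tet2, while the reference transcripts gave 27 in 20 of the 53 genes. Of these, 9 were LPS up, 3 LPS down, 7 Mel+LPS up and 8 Mel+LPS down, with values from 1.14 to 3.2. Overlapping LPS up and Mel+LPS down peaks were found here in Tet2 (2.51 and 3.2), Bptf (1.38 and 2.32) and Kmt2e (1.69 and 1.59). By this annotation Trrap also had a Mel+LPS down peak (1.19), Hdac4 an LPS down peak (1.7) and a Mel+LPS up peak (2.72) at separate positions, and Chd1 2 further Mel+LPS up peaks (1.96 and 1.18).

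The density of DRACH motifs was close to that of all genes. On the transcript strand the 169 exon peaks held 821 matches in 32995 bases, or 24.9 per kilobase (exact Poisson interval 23.2 to 26.6), and those of all genes held 24.7 per kilobase. A match was present in 98.8% of the peaks, against 97.5% over all genes, and the shorter GGAC was present in 63.3% against 60.0%. In windows of equal length around the peak centres DRACH was present in 100.0% and 99.4%. Among the sequences above GGAC occurs in those of Asxl1, Tet3, Chd6 and Crebbp and not in those of Setd2, Tet2, Kmt2a and Ash1l.

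A further 109 chromatin genes outside the group, listed by name, were counted in the same way, with no test of the difference from the 53. This list too was made with earlier results of these data known. Peaks were found for 47 of the 109 in LPS up (43.1%, 34.2 to 52.5), 60 in Mel+LPS up (55.0%, 45.7 to 64.1) and 33 in Mel+LPS down (30.3%, 22.4 to 39.5), and the last interval overlaps that of the 53 genes. In LPS down on chromosomes 1 to 9, 25 of 47 had a peak (53.2%, 39.2 to 66.7), above the 43.3% of the chromatin modifier genes but with overlapping intervals. The highest values were in Eed, a Polycomb subunit (12.5, LPS down), Brd2, a bromodomain reader of acetylated histones (17.3, Mel+LPS up), Kat8, an acetyltransferase for histone H4 (19.7, Mel+LPS down), and L3mbtl3, a methyl-lysine reader (11.9, LPS up).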

How the data were processed

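RNA from whole uterus on day 5 of pregnancy was fragmented to about 100 nucleotides and enriched with an m6A antibody, with input libraries alongside. Per the study's methods and processing notes, reads were trimmed with Fastp and aligned to mm10 with STAR 2.5.2a, peaks were called with exomePeak2, and differential peaks were taken with MACS2 (version given as 3.4) and annotated with ChIPseeker 1.22.1. How replicates and input were combined is not given in the sources used here. The authors deposited 4 tables with 1 score per peak, the log10 likelihood ratio, and no counts, so neither depth nor replicate error could be computed.

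Peaks were given to genes as described above, 241 through the gene named in the annotation and 30 through the assigned gene alone. Positions were compared with GENCODE M21 (GRCm38) transcripts, and sequences were cut from these. All 53 genes matched RefSeq symbols. Genes were described in full if they were among the 5 highest in a table, among the 5 with most peaks, had peaks of both directions or had a site in both comparisons, and the rest were given by family. The members and lists were chosen with earlier results of these data known. Shares have 95% Wilson intervals, which cover the counting of genes or peaks only. Calculations used Python 3.11.15, pandas 2.3.3 and scipy 1.17.1, and the assignment steps were tested on simulated data. Beyond chromosome 9, 155 peaks of the incomplete table were not used, none of them in these genes.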

Additional observations from a re-analysis of the deposited data

How the results depend on the processing

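Of 86 values recomputed under alternatives, 40 stayed within their limits and 46 moved. The LPS down share of the 53 genes, 43.3%, was above that of all genes (22.0%) and of genes with long transcripts (37.0%) but below that of genes with a peak in any table (49.2%), so the direction of that difference turned with the background. No paired analysis was possible because the tables hold no values per replicate and no test was made, and leaving out a replicate was not possible for the same reason. The move of the centre toward the 3′ end, the values without Chd9 and every alternative for the share of up peaks were chosen after seeing the data.

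When peaks scoring below 3 were left out, 19 genes (30 peaks) remained in LPS up, 6 (8) in LPS down, 28 (53) in Mel+LPS up and 17 (25) in Mel+LPS down, 5 and 8 genes had peaks of both directions in the LPS and Mel+LPS comparisons, exon and intron shares were 55.2% and 33.6%, and pairs between comparisons numbered 11 (LPS up, Mel+LPS down), 2 (LPS down, Mel+LPS up) and 0 (up in both). With the assigned gene alone, wherever the peak lay, there were 23 genes (45 peaks) in LPS up, 25 (61) in Mel+LPS up and 16 (29) in Mel+LPS down, and 11 genes had both directions in the Mel+LPS comparison. With centres on a reference exon there were 10 peaks in LPS down, 79 in Mel+LPS up and 23 in 16 genes in Mel+LPS down, and 5 and 10 genes had both directions. By the reference 46.1% of peaks had their centre on coding bases and 52.4% had it off the exons, including peaks annotated as exon. Against genes with a peak in any table the shares of all genes were 47.6%, 49.2%, 60.6% and 36.2% (LPS up, LPS down, Mel+LPS up, Mel+LPS down), and against genes with long transcripts 39.0%, 37.0%, 44.5% and 27.5%. With 1 peak per gene and table the intron share was 25.4%, the 3′ UTR share 0.0% and the Mel+LPS up median 4.42. Requiring an overlap of 50% of each peak left 1 pair up in both comparisons. The share in exons of at least 400 bases was 56.4% after a move of 100 bases toward the 5′ end and 95.1% toward the 3′ end. Of the exon peaks in the Mel+LPS vs LPS comparison 83.6% were up. Without Chd9 the intron share of LPS up was 11%. Stricter limits give fewer peaks by construction. The shares of all genes under such limits are not given here, so these counts do not show whether the differences from all genes remain. The cause of the other shifts was not tested.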

Other observations

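A further 29 peaks on 16 of the 53 genes carried one of these genes as the authors' assigned gene but had their centre outside the gene's listed ends, 14 in promoters, 6 in a 3′ UTR, 4 intergenic, 3 in introns and 2 in exons. In Ash1l 4 such peaks, classed as promoter, lay between the ends of coding exon 3 of the reference transcript: 1 was LPS down (7.66, chr3:88983145-88983398) and 3 were Mel+LPS up (2.54, 4.55 and 2.89). Promoter peaks were also assigned to Dnmt3a (8.21, Mel+LPS up, and 1.29, Mel+LPS down), Kmt2a (6.51, LPS up) and Kat6a (5.25, LPS up).

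The 5 peaks assigned to Dnmt1 in this way were all in a 3′ UTR upstream of its start. LPS down held 3 of them (2.03, 2.07 and 2.69) and Mel+LPS up held 2 (2.4 and 3.35). A 3′ UTR upstream of a gene's start belongs to another transcript, so these values were not counted for Dnmt1.

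Outside the 53 genes, Hdac9, a class IIa deacetylase gene like Hdac4 and Hdac5, had an exon 11 peak with identical ends in LPS up (8.03) and Mel+LPS down (8.16).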
